A study of Mus musculus with 9 samples.

Results

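Excitatory synapses in the brain are built on a protein lattice under the postsynaptic membrane. PSD-95, the product of Dlg4, ties glutamate receptors to the lattice, SAPAP proteins such as that of Dlgap3 link PSD-95 to Shank proteins, and Homer proteins cross-link Shank to group I metabotropic glutamate receptors and to calcium stores. CaMKII, whose alpha subunit is the product of Camk2a, is the abundant calcium-activated kinase of the same structure and is needed for long-term potentiation in the hippocampus. The transcripts of 9 such genes are described here in hippocampal tissue: Dlg4, Dlgap3, Shank1, Shank2, Shank3, Homer1, Homer2, Homer3 and Camk2a. They were taken by gene symbol from a table of 57010 genes, each symbol matched 1 row, and all 9 were among the 17967 genes that passed the filter on low counts.

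The tissue came from C57BL/6J mice in 3 groups of 3 libraries. In the sham group the L5 spinal nerve was located but left untied, and solvent was given after surgery. In the SNL group the nerve was tied, which models neuropathic pain, and the mice then received solvent. In the CBD group ligation was followed by cannabidiol, a non-intoxicating cannabinoid, injected into the abdomen at 5 mg/kg for 15 days. The sources used here give no sex, age, day of tissue collection or pooling of animals. Whether each library is a separate animal is not stated, and p-values therefore measure only the spread between these libraries, which may be technical. No group received cannabidiol without ligation, so CBD differs from sham in both ligation and drug.

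Libraries summed to between 16972620 and 20470546 expected counts. Markers of hippocampal cells were present in every library, with summed levels of 362 to 739 CPM (counts scaled to library size) for dentate granule cells, 524 to 1207 for CA1 pyramidal cells and 387 to 462 for CA3 and mossy cells. Transcripts of tissue outside the hippocampus differed between libraries. The 9 hypothalamic markers tested summed to 394 CPM in CBD 1, 304 CPM in SNL 1 and 66.8 CPM in SNL 2, while 6 libraries stayed at 9.69 CPM or lower. Agrp, also on that list, was too low to be tested. All 10 thalamus and habenula markers were higher in SNL than in sham, with sums of 416 to 648 CPM in sham, 721 to 1689 in SNL and 678 to 896 in CBD. Choroid plexus markers summed to 139 to 1306 CPM in sham, 262 to 2197 in SNL and 1139 to 1877 in CBD. Striatal markers ran from 44.4 CPM in Sham 2 to 156 in CBD 1. In whole tissue, fewer cells of a type and less RNA per cell cannot be told apart.

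In sham hippocampus Camk2a was by far the most abundant of the 9 transcripts. Levels of different genes were set on a common scale as CPM per kilobase of the longest coding transcript. On that scale Camk2a stood at 789 ± 244 (mean ± SD, n = 3 libraries) and Dlg4 at 116 ± 22.1. Shank1 followed at 74.1 ± 19.1, Dlgap3 at 63.8 ± 16.9 and Shank3 at 44.7 ± 10.3. Shank2 stood at 22.6 ± 5.90, Homer3 at 21.7 ± 7.44, Homer1 at 11.1 ± 1.48 and Homer2 at 7.05 ± 0.996. The sham ranges of neighbours in this order did not overlap between Camk2a and Dlg4, Shank3 and Shank2, Homer3 and Homer1, or Homer1 and Homer2. All other neighbours overlapped. With the median in place of the longest coding transcript, Camk2a, Dlg4 and Shank1 kept the top places at 2890, 789 and 109.5. Shank3 at 77.8 then lay above Dlgap3 at 69.1. Homer2 at 45.9 lay above Shank2 at 26.5, Homer1 at 25.6 and Homer3 at 24.4. The order below the top places, also within the Homer family, thus rests on the transcript length used.

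SNL against sham sets ligated against unligated mice, both on solvent. All 9 scaffold transcripts had a lower mean in ligated mice, with log2 fold changes from -1.13 for Homer3 to -0.27 for Shank3 and a median of -0.42, while the median of all genes tested was 0.01 and 48.4% of them were lower and 51.6% higher. The mean of Homer3 was 0.457 of its sham level and that of Camk2a 0.543, the largest differences of the 9. None of the 9 passed edgeR's quasi-likelihood test at an adjusted p under 0.05, where 0.0% of all genes did, and their adjusted p ran from 0.21 to 0.734. At an unadjusted p under 0.05, 3 of the 9 were lower (Homer1, Homer3 and Camk2a), against 7.96% of all genes, and none was higher, against 5.83%. Homer1 and Homer3 were the 2 members whose SNL libraries all lay below all sham libraries, against 9.81% of all genes, and no member lay wholly above sham, against 7.94%. The DESeq2 Wald test called 1 of the 9, Homer3, where it called 1.82% of genes as lower and 0.765% as higher. Every DESeq2 share given here is of the genes to which it gave an adjusted p, 14121 in this comparison.

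CBD against SNL sets drug against solvent after ligation. The 9 genes had no common direction, with 5 higher and 4 lower and a median log2 fold change of 0.12, beside -0.001 over all genes, of which 49.9% were higher and 50.1% lower. Homer1 (0.39) and Homer2 (0.38) had the largest increases in mean, and Dlgap3 (-0.28) and Shank3 (-0.26) the largest decreases. No gene passed by edgeR (0.0% of all genes). None of the 9 passed by DESeq2, which called 0.663% of the 9951 genes with an adjusted p as lower and 0.914% as higher. None had an unadjusted p under 0.05 by edgeR, against 7.20% lower and 6.50% higher of all genes. For all 9 genes the groups overlapped, where 10.1% of all genes lay wholly lower and 9.18% wholly higher, and the 95% interval of the difference included 0. Those intervals were wide, from -0.96 to 0.44 for Shank3 and from -0.38 to 1.07 for Camk2a, and do not show that the groups were alike.

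In CBD against sham, 8 of the 9 were lower and Homer2 was slightly higher, with a median log2 fold change of -0.53 beside 0.001 over all genes, where 49.9% were lower and 50.1% higher. Homer3 again had the largest difference, at 0.432 of its sham level. None passed by edgeR (0.0% of all genes, adjusted p from 0.213 to 0.948). At an unadjusted p under 0.05, 3 were lower (Shank1, Homer3 and Dlgap3), against 8.87% of all genes, and none was higher, against 7.41%. The same 3 were the members lying wholly below sham, against 11.1%, and none lay wholly above, against 10.6%. DESeq2 called Homer3 only among the 9, where it called 2.34% of the 11338 genes with an adjusted p as lower and 1.05% as higher. The comparisons share groups: SNL and sham each stand in 2 of them and so does CBD, and their fold changes are not independent.

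**Figure D1:**
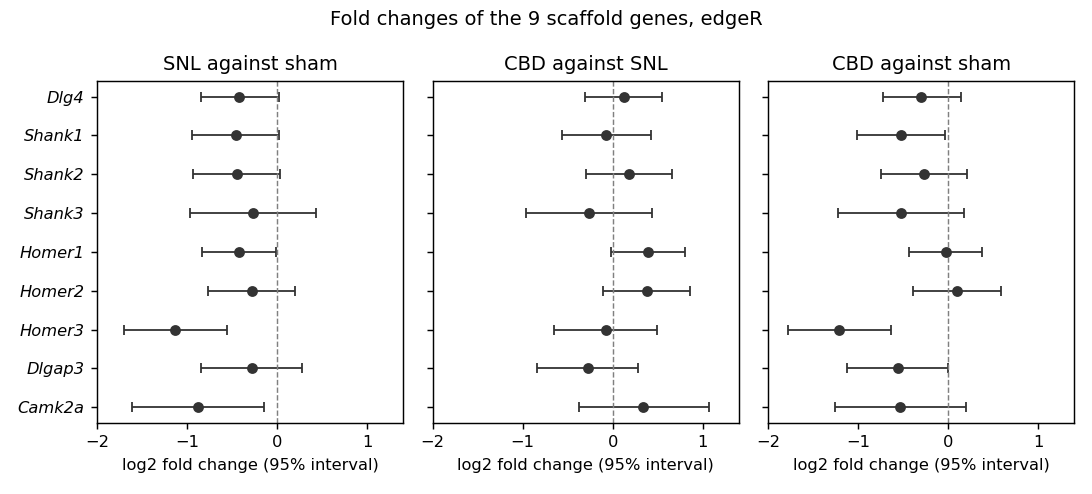
Log2 fold changes of the 9 scaffold genes in the 3 comparisons, as points with 95% intervals from edgeR, and a dashed line at 0. In SNL against sham all 9 points lie left of 0, and in CBD against sham Homer3 is the farthest from 0 at -1.21.

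The median of the 9 shifted with single libraries and with offsets for transcript composition. For SNL against sham it ran from -0.59 without SNL 2 to -0.27 without Sham 1. For CBD against SNL it ran from 0.00 without SNL 1 to 0.28 without CBD 1. For CBD against sham it was -0.33 without Sham 1 or without Sham 2 and -0.26 without CBD 1, and its lowest value with 1 library left out was -0.70. It was -0.24 without SNL 1, SNL 2 and CBD 1, and -0.20 with offsets that remove each library's trend on transcript GC content and length. Only fits with these offsets, in CBD against sham, moved the median by more than 0.31, the pooled SD of the library medians.

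Dlg4 encodes PSD-95, the core receptor-anchoring scaffold. Its levels were 867, 748 and 588 CPM in Sham 1, 2 and 3, 463, 564 and 620 in SNL 1, 2 and 3, and 444, 674 and 673 in CBD 1, 2 and 3. Sham 3 lay below SNL 3, and the CBD libraries spanned from below every SNL library to above them. The log2 fold change was -0.42 (SE 0.20) in SNL against sham and 0.12 (SE 0.20) in CBD against SNL, with adjusted p of 0.377 and 0.816. The second value ran from 0.00 without SNL 1 to 0.28 without CBD 1, with 0.22 without SNL 3 and 0.02 without CBD 2 or without CBD 3.

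Dlgap3 encodes SAPAP3, the linker between PSD-95 and Shank. It stood at 339, 269 and 197.0 CPM in sham, 151, 305 and 206.5 in SNL, and 157, 191 and 196.9 in CBD. SNL 2 was among the highest of all libraries while SNL 1 was the lowest, so the SNL group covered most of the sham range. The CBD values lay together and just below the lowest sham library, with a mean of 182 ± 21.4 against 269 ± 71.0 in sham (log2 fold change -0.56, SE 0.25, adjusted p 0.306 by edgeR's quasi-likelihood test, and -0.36 without Sham 1). In SNL against sham it was -0.28 (SE 0.25), with -0.08 without Sham 1, -0.46 without Sham 3, -0.06 without SNL 1 and -0.59 without SNL 2.

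Shank proteins form the deep layer of the lattice and bind SAPAP, Homer and the actin cytoskeleton. Shank1 stood at 922, 716 and 547.5 CPM in sham, 410.2, 677 and 498 in SNL, and 427, 543 and 541 in CBD. Shank2 stood at 254, 208 and 148 CPM in sham, 113, 176 and 157 in SNL, and 138, 184 and 184 in CBD. Shank3, the gene lost in Phelan-McDermid syndrome, stood at 391, 353 and 245 CPM in sham, 161, 441 and 218 in SNL, and 210, 226 and 246 in CBD. Sham 1 was the highest library for Shank1 and Shank2, but SNL 2 was the highest for Shank3, and SNL 1 was the lowest for all 3.

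The coefficient of variation of Shank3 was 54.2% within SNL, against 22.9% in sham and 8.01% in CBD. Its log2 fold change in SNL against sham was -0.27 (SE 0.31), and it was 0.01 without SNL 1 and -0.80 without SNL 2. Shank1 was -0.46 (SE 0.22) in the same comparison and -0.53 (SE 0.22) in CBD against sham, where no CBD library reached the lowest sham library. Without Sham 1 these Shank1 values were -0.26 and -0.33, and the SNL value was -0.30 without SNL 1. Shank2 was -0.45 (SE 0.22) in SNL against sham, with -0.26 without Sham 1 and -0.28 without SNL 1. It was -0.27 (SE 0.22) in CBD against sham, with -0.08 without Sham 1, -0.45 without Sham 3 and -0.15 without CBD 1. All adjusted p for the Shank genes were 0.279 or more by edgeR's quasi-likelihood test in the 3 comparisons.

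The mix of the 3 Shank transcripts was similar in 8 of the 9 libraries. By CPM per kilobase, Shank1 made up 52.3% ± 1.53 of the family in sham, 51.1% ± 4.24 in SNL and 50.7% ± 1.10 in CBD, Shank2 16% ± 0.283, 15.9% ± 2.41 and 18.5% ± 0.831, and Shank3 31.7% ± 1.5, 33.1% ± 6.34 and 30.7% ± 1.89 (n = 3 each). SNL 2 stood apart with a Shank3 share of 40.3%, and the other 8 libraries lay between 28.6% and 33.3%. The Shank2 share was above all sham libraries in all CBD libraries, which ran from 17.6% to 19.2% against 15.6% to 16.1%.

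Homer proteins carry an EVH1 domain that binds proline-rich motifs in Shank and in metabotropic receptors, and the long forms join through a coiled coil. Homer1 also yields a short, activity-induced form, Homer1a, that lacks the coiled coil, and the gene-level counts used here do not separate the forms. The 250 bases before a RefSeq start of each of the 3 Homer genes are shown, on build GRCm38.p6. Whether these bases bear on the levels in these libraries was not tested. Capitals mark matches on either strand to TGACG (the half-site of the cAMP response element), GGGCGG (a GC box), GCGTGGG (an Egr motif), CACGTG (an E-box) or AGAACA (a half-site of the glucocorticoid response element).
Homer1, chr13:93303507-93303756, plus strand: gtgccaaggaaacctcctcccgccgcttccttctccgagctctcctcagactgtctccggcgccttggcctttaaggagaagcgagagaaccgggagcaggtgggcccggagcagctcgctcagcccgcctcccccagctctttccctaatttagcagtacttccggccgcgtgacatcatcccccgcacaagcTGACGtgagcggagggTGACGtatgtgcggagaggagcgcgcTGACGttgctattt
Homer2, chr7:81706926-81707175, minus strand: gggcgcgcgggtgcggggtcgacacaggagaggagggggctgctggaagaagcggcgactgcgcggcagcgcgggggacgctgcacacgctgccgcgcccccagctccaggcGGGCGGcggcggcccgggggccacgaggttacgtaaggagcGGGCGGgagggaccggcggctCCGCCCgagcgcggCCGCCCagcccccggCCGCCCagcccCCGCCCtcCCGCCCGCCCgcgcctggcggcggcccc
Homer3, chr8:70282749-70282998, plus strand: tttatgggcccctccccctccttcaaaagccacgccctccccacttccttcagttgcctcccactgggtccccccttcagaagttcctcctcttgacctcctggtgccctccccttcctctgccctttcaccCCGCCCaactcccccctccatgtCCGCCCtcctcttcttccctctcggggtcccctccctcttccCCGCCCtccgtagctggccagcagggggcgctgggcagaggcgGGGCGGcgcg

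The Homer1 window held 3 TGACG matches and no GC box, while the Homer2 and Homer3 windows held 8 and 4 GC boxes, overlapping matches counted, and no TGACG. Over 32817 windows of the same length before RefSeq starts, 17.7% held TGACG, 32.7% GGGCGG, 4.31% GCGTGGG, 6.02% CACGTG and 16.1% AGAACA. The GC content of the windows was 62.4% for Homer1, 83.2% for Homer2 and 68.0% for Homer3, against a median of 52.4%. Homer1 and Homer2 each have a further start in that table. The other Homer1 window held 1 glucocorticoid half-site match and no other motif, at a GC content of 46.8%, and the other Homer2 window held none of the motifs, at 52.0%, so the contrast holds for the starts printed. A match is a description of the letters and not a binding site.

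Homer1 stood at 64.6, 70.9 and 54.2 CPM in sham, 44.7, 44.96 and 51.9 in SNL, and 45.9, 59.9 and 79.6 in CBD. Every SNL library lay below every sham library, with SNL 3 and Sham 3 close together, and the CBD libraries ran from the SNL level to above sham. The log2 fold change was -0.42 (SE 0.18, 95% interval -0.83 to -0.01) in SNL against sham and 0.39 (SE 0.18, -0.02 to 0.80) in CBD against SNL, with adjusted p of 0.35 and 0.382 by edgeR's quasi-likelihood test. The second value was 0.16 without CBD 3 and 0.05 with the GC and length offsets.

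Homer2 followed a like course, at 78.6, 87.7 and 65.9 CPM in sham, 49.5, 80.2 and 60.9 in SNL, and 60.7, 82.2 and 105 in CBD. CBD 3 was the highest and SNL 1 the lowest of the 9 libraries. All 3 groups overlapped, and the log2 fold change was -0.28 (SE 0.22) in SNL against sham and 0.09 (SE 0.22) in CBD against sham. The SNL value was -0.13 without SNL 1 and -0.49 without SNL 2, and the CBD value was 0.19 without Sham 2, -0.01 without Sham 3, 0.27 without CBD 1 and -0.12 without CBD 3. In CBD against SNL the value of 0.38 became 0.22 without SNL 1, 0.58 without SNL 2 and 0.17 without CBD 3.

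Homer3 had another pattern. It stood at 56.2, 76.3 and 37.5 CPM in sham, 23.2, 20.6 and 33.9 in SNL, and 23.0, 28.2 and 22.2 in CBD. All 6 libraries of ligated mice lay below the lowest sham library, with Sham 2 far above the rest and SNL 3 closest to sham. The mean was 56.7 ± 19.4 CPM in sham, 25.9 ± 7.07 in SNL and 24.5 ± 3.26 in CBD.

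The log2 fold change of Homer3 was -1.13 (SE 0.26, 95% interval -1.70 to -0.56) in SNL against sham and -1.21 (SE 0.26, -1.78 to -0.64) in CBD against sham, and the adjusted p was 0.21 and 0.213 by edgeR's quasi-likelihood test. In CBD against SNL it was -0.08 (SE 0.26, -0.65 to 0.49). The adjusted p of Homer3 against sham was 0.0044 for SNL and 0.00245 for CBD by DESeq2, 0.00876 and 0.00779 by edgeR with no filter on low counts, and 0.0956 and 0.0312 by limma voom with sample weights. Over all alternatives it ran from 0.0044 to 0.736 for SNL and from 0.00245 to 0.857 for CBD, so the call rests on the test and on the filter. The fold change stayed negative under every alternative run, between -1.37 and -0.73 for SNL and between -1.44 and -0.90 for CBD, and its value of -0.73 came from the fit without SNL 1, SNL 2 and CBD 1, in which SNL 3 is the single SNL library.

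Ddx49, an RNA helicase gene on the opposite strand, shares 25.4% of the exon bases of Homer3 in the GENCODE M21 annotation of GRCm38, and the sources used here do not say whether the counting used strand. Reads in that stretch could belong to either gene. Ddx49 stood at 29.6 ± 2.97 CPM in sham, 29.3 ± 5.79 in SNL and 23.3 ± 1.58 in CBD, and its log2 fold change was -0.01 (SE 0.15) in SNL against sham and -0.35 (SE 0.15) in CBD against sham. Of the other members, Shank1, Shank3 and Homer2 shared at most 4.16% of exon bases with another gene, all on the opposite strand, and Dlg4, Shank2, Homer1, Dlgap3 and Camk2a shared none.

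The Homer family held less Homer3 in the libraries of ligated mice. By CPM per kilobase, Homer3 made up 53.9%, 58.9% and 48.1% of the family in the sham libraries, 41.9%, 34.2% and 47.0% in SNL, and 39.4%, 37.6% and 26.6% in CBD. Every sham library lay above every library of ligated mice, though Sham 3 and SNL 3 were close. Homer1 made up 28.3% ± 3.39 in sham, 34.6% ± 2.05 in SNL and 38.6% ± 4.26 in CBD, and Homer2 18.0% ± 2.01, 24.3% ± 6.40 and 26.9% ± 2.70 (n = 3 each). With median transcript lengths Homer2 was the largest of the family, at 45.8% to 50.7% in sham, 50.4% to 63.8% in SNL and 55.8% to 59.9% in CBD, and the Homer1 share was 25.3% to 28.4% in sham, within the 24.4% to 31.5% of SNL, and 28.5% to 30.9% in CBD. The Homer3 shares were 20.9% to 28.9% in sham, 11.9% to 20.3% in SNL and 9.18% to 15.4% in CBD, again without overlap between sham and the others. These shares were not tested.

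**Figure D2:**
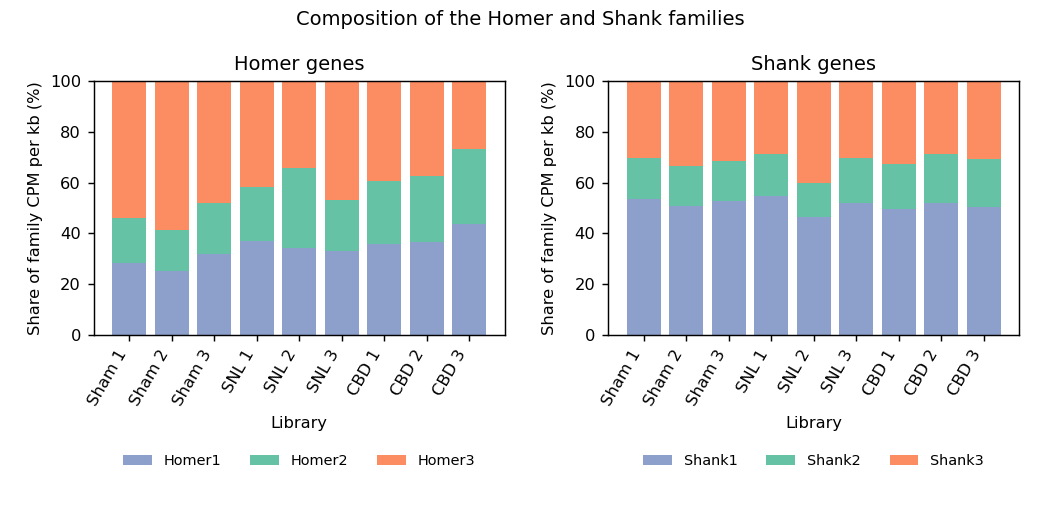
Share of each gene in the summed CPM per kilobase of the Homer family (left) and the Shank family (right), 1 bar per library, in percent. The Homer3 share is 48.1% or more in the 3 sham libraries and 47.0% or less in the other 6, while the Shank shares are similar in 8 libraries and SNL 2 has 40.3% Shank3.

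Camk2a, the 15th most abundant of all genes tested, stood at 4196, 4974 and 2592 CPM in sham, 1601, 2024 and 2765 in SNL, and 1526, 3144 and 3445 in CBD. Sham 3 lay below SNL 3, and CBD 1 was the lowest library while CBD 2 and CBD 3 lay above every SNL library. The log2 fold change was -0.88 (SE 0.33, 95% interval -1.61 to -0.15, adjusted p 0.291 by edgeR's quasi-likelihood test) in SNL against sham. It was 0.34 (SE 0.33) in CBD against SNL and -0.54 (SE 0.33) in CBD against sham. The CBD against SNL value was 0.17 without SNL 1, 0.58 without SNL 3, 0.62 without CBD 1, 0.22 without CBD 2 and 0.13 without CBD 3. The CBD against sham value was -0.33 without Sham 2 and -0.26 without CBD 1, and its lowest value with 1 library left out was -0.76. Without SNL 1, SNL 2 and CBD 1 the SNL against sham value was -0.49.

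**Figure D3:**
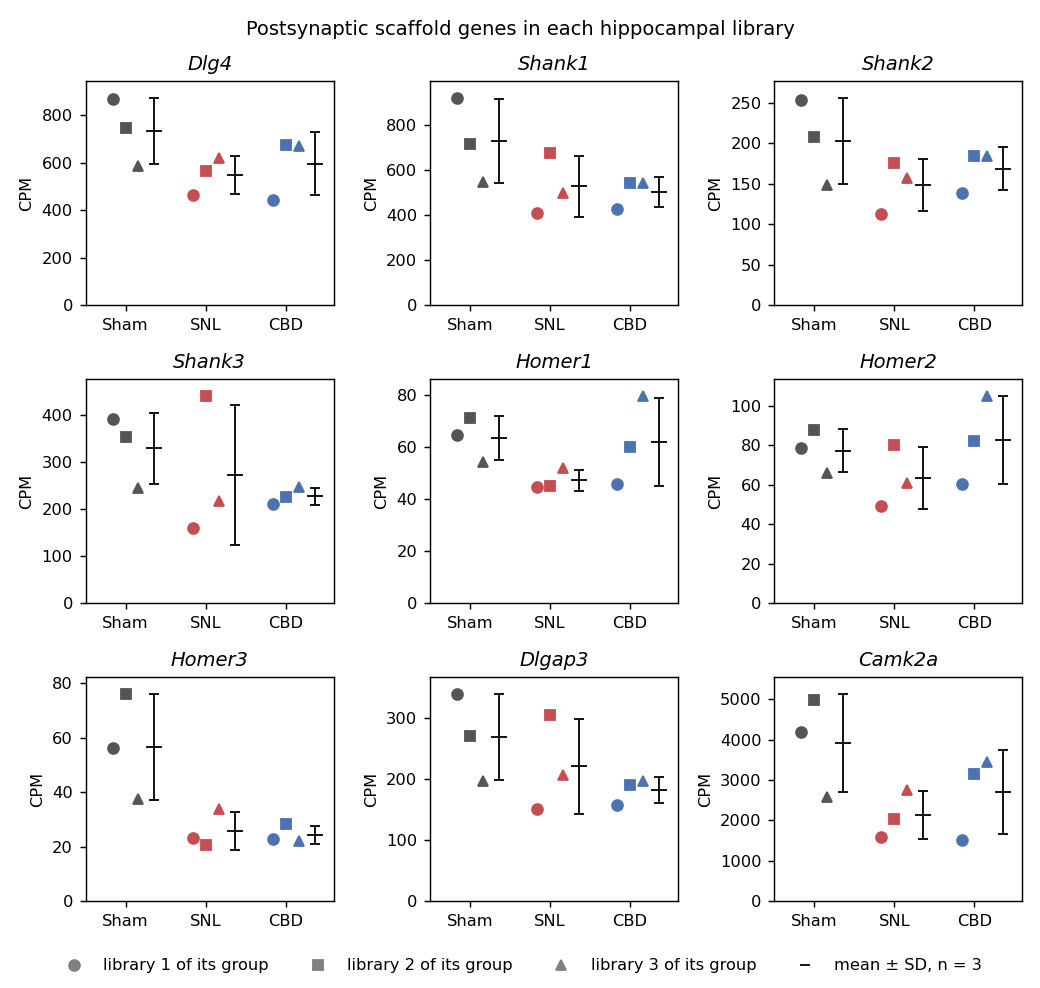
CPM of the 9 scaffold genes in each library (y axes start at 0 and differ between panels), with a symbol for each library of the Sham, SNL and CBD groups and bars for mean ± SD (n = 3). For Homer3 all SNL and CBD libraries lie below the lowest sham library at 37.5 CPM, while for Shank3 the SNL libraries run from 161 to 441 CPM.

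Libraries differed in the whole set as well as gene by gene. Sham 2 was among the 3 highest libraries for all 9 genes and Sham 1 for 8. CBD 1 was among the 3 lowest for all 9 and SNL 1 for 8, and these 2 libraries held the lowest value of 8 of the 9 genes. They are also the libraries with the highest sums of hypothalamic markers. Markers of glutamatergic neurons (6 genes, among them Slc17a7 and Nrgn, which is also among the CaMKII partners) were compared with this order. Their sum was 2542, 2708 and 1340 CPM in Sham 1, 2 and 3, 932, 919 and 1814 in SNL 1, 2 and 3, and 698, 1599 and 1672 in CBD 1, 2 and 3. It was thus also high in Sham 1 and Sham 2 and low in SNL 1 and CBD 1. SNL 2, low in these markers, was among the 3 highest libraries for 3 scaffold genes and among the 3 lowest for 4. SNL 3, high in them, was among the 3 highest for 0 and among the 3 lowest for 3. All 6 markers were lower in SNL than in sham, with a median log2 fold change of -0.90. The sums for CA1 markers were 775 to 1207 CPM in sham, 524 to 805 in SNL and 534 to 926 in CBD. General neuronal markers had overlapping sums, at 5826 to 6803 CPM in sham, 6022 to 6265 in SNL and 6049 to 6366 in CBD. Dentate granule cell markers summed to 475 CPM or more in every sham library, to 461 or less in every SNL library and to 363 to 615 in CBD. Markers of CA3 and mossy cells had overlapping sums, at 393.5 to 450 CPM in sham, 396 to 462 in SNL and 387 to 452 in CBD. Of these CA3 and mossy cell markers, 5 were lower and 4 higher in SNL than in sham. Markers of endothelium and pericytes, all 8 of them higher in SNL than in sham, had sums of 389 to 514 CPM against 278 to 335 and 360 to 425 in CBD. DESeq2 called 4 of them as higher in SNL against sham, where it called 0.765% of the genes with an adjusted p as higher. All 8 oligodendrocyte markers were higher in SNL than in sham and lower in CBD than in SNL, with sums of 8722 to 11790 CPM in sham, 10550 to 14940 in SNL and 8298 to 9685 in CBD. The part of such differences in the values of the scaffold genes was not tested.

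The members did not move as one in SNL 2 and CBD 3. In SNL 2 the deviation from the mean of all libraries was 0.74 on the log2 scale for Shank3, 0.50 for Dlgap3 and 0.25 for Shank1. Their transcripts have the highest GC content of the 9, at 62.4%, 63.9% and 61.4%. It was -0.32 for Homer1 (36.9%), 0.14 for Homer2 (44.4%) and -0.12 for Dlg4 (46.8%). For Camk2a (53.3%) it was -0.42, for Shank2 (55.0%) 0.06 and for Homer3 (60.2%) -0.65. In CBD 3 the deviations were 0.50 for Homer1 and 0.53 for Homer2, the genes of lowest GC content. There they were -0.53 for Homer3, -0.07 for Shank1, -0.10 for Shank3 and -0.13 for Dlgap3, the genes of highest GC content. The part of GC content in these deviations was not tested. With the GC and length offsets, the log2 fold change in SNL against sham was -0.07 for Shank3 and for Dlgap3, -0.21 for Shank1, -0.49 for Homer1, -0.79 for Camk2a and -1.04 for Homer3.

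**Figure D4:**
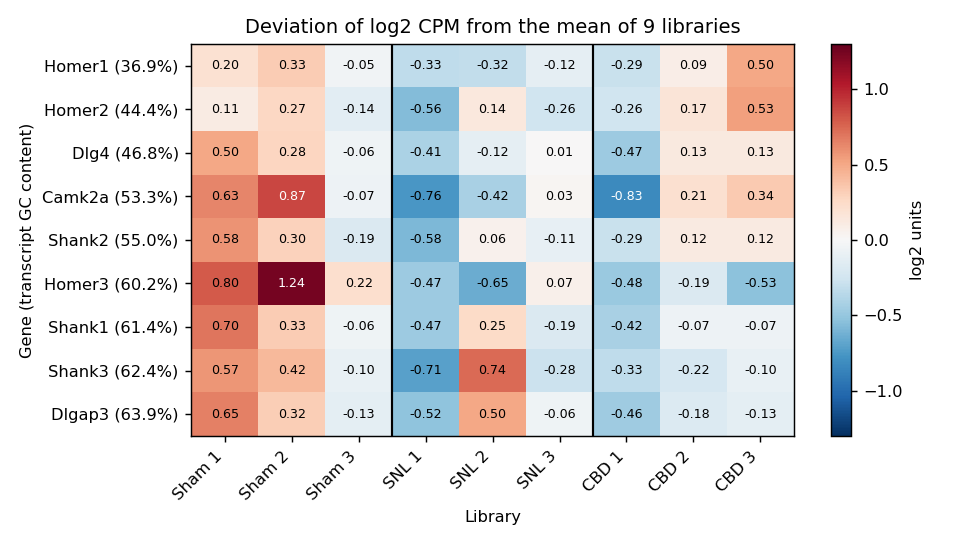
Deviation of log2 CPM from the mean of the 9 libraries for each scaffold gene (rows, ordered by transcript GC content) in each library (columns), in log2 units, with black lines between the groups. Homer3 reaches 1.24 in Sham 2 and is -0.53 in CBD 3, where Homer1 and Homer2 are at 0.50 and 0.53.

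Likeness between members was described by Pearson's r of log2 CPM over the 9 libraries, which share their differences in tissue and depth, and no p is given. Shank1 was most like Dlgap3 (r = 0.96), and so was Shank3 (0.95). Dlg4 and Camk2a were most like each other (0.95), Shank2 was most like Dlg4 (0.93), Homer2 most like Homer1 (0.81), and Homer1 (0.87) and Homer3 (0.77) most like Camk2a. The least alike pair was Homer2 and Homer3 (0.20). The other genes ranked numbered 10604, each averaging 10 CPM or more, and the 5 most like the mean standardised level of the 9 were Dusp4, a MAP kinase phosphatase gene (r = 0.986), Coro2b, an actin-binding coronin gene (0.985), Dapk1, a calmodulin-regulated kinase gene (0.983), Dagla, which makes the endocannabinoid 2-AG (0.979), and Pitpnm2, of phosphatidylinositol transfer (0.979). Dusp4 stood at 18.3 ± 4.93 CPM in sham, 10.7 ± 3.87 in SNL and 11.9 ± 3.60 in CBD. Dagla stood at 183 ± 47.8, 118 ± 32.5 and 125 ± 41.6. A total of 257 of these genes had an r above 0.9.

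Other postsynaptic scaffold and adaptor genes were lower in SNL for 21 of 22, with a median log2 fold change of -0.46, where 48.4% of all genes were lower. None passed at an adjusted p under 0.05 by edgeR. By DESeq2 4 did, all lower, where it called 1.82% of the genes with an adjusted p as lower. At edgeR's unadjusted p, 16 were lower under 0.05, against 7.96% of all genes, and 10 lay wholly below sham, against 9.81%. The smallest p-values belonged to Sipa1l1, an actin regulator bound to PSD-95 (-0.86, SE 0.23), Dlgap2, a SAPAP paralog (-1.03, SE 0.27), and Baiap2, the membrane-curving protein IRSp53 (-0.90, SE 0.25), with adjusted p from 0.226 to 0.23. Sipa1l1 stood at 354, 346 and 231 CPM in sham, 136, 175 and 201 in SNL, and 178, 275 and 289 in CBD, so that no SNL library reached sham.

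In CBD against SNL, 18 of these 22 genes were higher (median 0.28), with 5 higher and 1 lower at an unadjusted p under 0.05, where 6.50% of all genes were higher and 7.20% lower. DESeq2 called 2, both higher, against 0.914% of the genes with an adjusted p. Ppp1r9a, the actin-binding neurabin (0.47, SE 0.11), Dlg2, the PSD-95 paralog PSD-93 (0.59, SE 0.15), and Tnik, a scaffold-associated kinase (0.32, SE 0.12), had the smallest p, with adjusted p of 0.306 to 0.321 by edgeR's quasi-likelihood test. Dlg2 stood at 254 ± 30.8 CPM in sham, 190 ± 28.7 in SNL and 286 ± 37.9 in CBD. In CBD against sham 18 of 22 were lower (median -0.26), against 49.9% of all genes. DESeq2 called 3 as lower, against 2.34% of the genes with an adjusted p. The smallest p belonged to Prr7, a transmembrane adaptor (-1.29, SE 0.22), followed by Begain (-0.45, SE 0.13), both with an adjusted p of 0.213 by edgeR's quasi-likelihood test. Prr7 stood at 21.7, 21.9 and 12.85 CPM in sham, 8.93, 12.2 and 12.75 in SNL, and 8.28, 7.38 and 7.41 in CBD.

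Receptors and adhesion molecules held by the scaffold were lower in SNL for 15 of 18 (median -0.41), with 8 lower and 1 higher at an unadjusted p under 0.05, against 7.96% and 5.83% of all genes, and none past edgeR's adjusted p. The smallest p belonged to Cacng8, an AMPA receptor auxiliary subunit (-1.10, SE 0.20), and Nlgn1, the postsynaptic partner of neurexin (-0.53, SE 0.15). Grin1, the obligatory NMDA receptor subunit (-0.46, SE 0.14), came next. DESeq2 called 1 of the list, Cacng8, as lower, against 1.82% of the genes with an adjusted p. In CBD against SNL 13 of the 18 were higher (median 0.23), 4 of them at an unadjusted p under 0.05 (6.50% of all genes), and DESeq2 called Nlgn1 and Adgrl3, an adhesion receptor gene, as higher (0.914%). In CBD against sham 10 were lower (median -0.04), and DESeq2 called Cacng8 as lower (2.34%). Nlgn1 stood at 51.7 ± 7.22 CPM in sham, 35.7 ± 5.95 in SNL and 52.9 ± 4.67 in CBD, and Grin1 at 593 ± 95.4, 431 ± 37.7 and 430.0 ± 39.3.

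The other CaMKII genes and partners were lower in SNL for 8 of 12 (median -0.15), none past the adjusted p by edgeR or DESeq2, with 3 lower and 2 higher at an unadjusted p under 0.05, against 7.96% and 5.83% of all genes. For Camk2b, the other main neuronal subunit gene, the log2 fold change was -0.71 (SE 0.22), for Camk4, a nuclear calmodulin kinase gene, it was -0.63 (SE 0.21), and for the more widely expressed subunit gene Camk2d it was 0.66 (SE 0.23). Camk2n2, an inhibitor of CaMKII, stood at 64.6 ± 9.58 CPM in sham, 82.6 ± 2.32 in SNL and 53.8 ± 10.6 in CBD. Its log2 fold change in CBD against SNL was -0.62 (SE 0.15, adjusted p 0.306 by edgeR's quasi-likelihood test). DESeq2 called it as lower there with an adjusted p of 0.0292, the single call of the list. It called 0.663% of the genes with an adjusted p as lower. In that comparison the median of the 12 was 0.04, and in CBD against sham it was -0.18.

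Scaffolds of other synaptic compartments were counted in the same way. All 7 genes of the inhibitory postsynaptic scaffold had a lower mean in SNL (median -0.18), with Iqsec3, an Arf exchange factor bound to gephyrin, at 286 ± 15.5 CPM in sham, 200 ± 13.2 in SNL and 231 ± 27.1 in CBD. Of 12 presynaptic scaffold and vesicle genes 9 had a lower mean in SNL and 3 a higher one (median -0.29), with Bsn, the active zone scaffold bassoon, at 469 ± 109 CPM in sham, 272 ± 36.5 in SNL and 330 ± 27.6 in CBD. The log2 fold changes in SNL against sham were -0.51 (SE 0.11) and -0.79 (SE 0.18). No gene of these 2 lists passed at an adjusted p under 0.05 by edgeR in any comparison, and 2 and 5 of them were lower at an unadjusted p under 0.05 in SNL, against 7.96% of all genes. DESeq2 called Iqsec3 and Bsn as lower in that comparison, 1 in each list, against 1.82%. The medians in CBD against SNL were 0.12 and 0.06.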

How the data were processed

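RNA of 9 hippocampal libraries was sequenced with a SMARTER mRNA kit, per the labels' protocols. The authors deposited expected counts per gene, as RSEM gives. The submitters' processing notes name RSEM and build GRCm39. Its version, the aligner, the annotation, the filters and the strand setting are not stated there or in the labels. Between 18.3% and 24.8% of values in a library were not whole (tolerance 1e-06), and all were rounded. Genes were filtered with filterByExpr, scaled by TMM and tested with edgeR 4.0.16 (R 4.3.3) with 1 factor for group over all 9 libraries. The Benjamini-Hochberg adjustment covered 17967 genes in this main fit, and the threshold was 0.05. SE is the log2 fold change over the root of F. CPM used TMM library sizes. Log2 CPM had a prior count of 2. In simulated data with 17967 genes, edgeR's recovery for SNL against sham was 4.5% at a 1.5-fold change, 43.3% at 2-fold and 78.8% at 4-fold. For CBD against SNL the shares were 9%, 59.7% and 77.3%. For CBD against sham they were 3%, 47.8% and 80.3%. The changed genes were picked at random from all genes tested, and counts were drawn gene by gene, without differences shared across genes. These shares are therefore not the recovery for the 9 scaffold genes.

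Transcript lengths and GC content came from GENCODE M21 (GRCm38), which held 98.2% of genes tested. Promoter windows came from RefSeq (GRCm38.p6), where 6 of the 9 genes were matched. The members and lists were chosen with earlier results of these data known. Some lists share genes. Nlgn2 is among the receptors and adhesion molecules and in the inhibitory postsynaptic scaffold. Calb2 is among the thalamus and habenula markers and the CA3 and mossy cell markers. Snap25 and Syt1 are among the presynaptic genes and the general neuronal markers. All 9 members were named. Each other list gave up to 3 genes per comparison by smallest p. A result that this rule gives is not reported here. Likeness gave 5 genes. Ddx49 was named after the values were seen, for its overlap with Homer3. Alternatives were DESeq2 (1.42.0) size factors and Wald test, limma voom (3.58.1), other filters, thresholds and library subsets, a replicate block, and offsets for GC content and length. Replicate numbers were not shown to pair libraries: 2 of 9 same-numbered pairs had deviations correlated above 0.1. The deviations are from means of 3 libraries and so depend on one another, and they cannot exclude pairing.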

Additional observations from a re-analysis of the deposited data

How the results depend on the processing

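Over the 3 comparisons, 168, 155 and 161 of 171 gene-by-alternative values kept their direction and their side of the threshold (SNL against sham, CBD against SNL, CBD against sham). Among them are fits without a library of the group not compared, which leave the fold change nearly as it was. Homer1 in SNL against sham, for example, stayed at -0.42 without CBD 1. These counts are therefore no measure of how firm the values are. Genes passing numbered 0 in each comparison, and 253, 1 and 56 with no filter on low counts, 365, 157 and 384 by DESeq2, 1, 1132 and 1051 by limma voom, and 1, 2 and 20 without SNL 1, SNL 2 and CBD 1. The genes tested numbered 17967 in the main fit and by voom, and 32593 with no filter on low counts. They numbered 19061 without SNL 1, SNL 2 and CBD 1. DESeq2 gave an adjusted p to 14121, 9951 and 11338 genes. For SNL against sham 2 of 17967 passed at an adjusted p under 0.1. For CBD against sham 1 of 17536 passed with only the 6 libraries compared. Leaving out 1 library gave 0 to 8, 0 to 2 and 0 to 17, with 18359 to 18450 genes tested. Of the 9 scaffold genes, 1 (Homer3) passed against sham in SNL and in CBD with no filter and by DESeq2. Homer3 also passed in CBD against sham by voom, where 1051 of 17967 genes passed. The cause was not tested.

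The median of the 9 in CBD against sham was -0.20 with offsets for GC content and length and -0.21 with those and the replicate block. With the replicate block alone, the medians were -0.44, 0.11 and -0.52, no gene passed, and no call changed. The same replicate numbers were not shown to pair libraries. Some values changed sign. In CBD against SNL, voom gave 0.14 for Shank1, 0.08 for Shank3 and 0.04 for Homer3. The offsets gave -0.06 for Dlg4, 0.02 for Shank1 and 0.12 for Homer3, and with the replicate block -0.07, 0.02 and 0.10. Without SNL 1, SNL 2 and CBD 1, Shank1 and Shank3 were both at 0.12. In CBD against sham, Homer2 was at -0.09 with the offsets and -0.10 with the block added, and Homer1 at 0.15 without those 3 libraries. Leaving out 1 library gave ranges of -0.80 to 0.01 for Shank3 in SNL against sham. In CBD against SNL they were -0.23 to 0.15 for Shank1, -0.54 to 0.27 for Shank3, -0.50 to 0.02 for Dlgap3 and -0.22 to 0.16 for Homer3. In CBD against sham they were -0.26 to 0.14 for Homer1 and -0.12 to 0.27 for Homer2. The medians ranged from -0.59 to -0.27, from 0.00 to 0.28 and from -0.70 to -0.26. Counts of the 9 genes were 384 or more in every library, and how depth limits these values was not tested.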
